A study of Bos taurus and Bubalus bubalis with 9 samples.

Results

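Intergenic circRNAs are circular RNAs that the deposited tables label as lying between genes. They were taken as all rows that carry this class label in the circRNA tables of buffalo and of cattle. In 9 libraries, 432 distinct intergenic junctions had at least 1 read, of 20659 circRNA junctions in all. Of the 170 intergenic rows of the buffalo table, 115 had reads in muscle and 55 did not. All 341 intergenic rows of the cattle table had reads (muscle 250, adipose tissue 173).

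A circRNA forms when the spliceosome joins the end of an exon back to the start of the same or an earlier exon, and reads across this back-splice junction are its usual signature. Most known circRNAs come from exons of protein-coding genes, and many occur in striated muscle, where long genes with many exons are strongly transcribed. Whether a junction is called intergenic depends on the gene annotation used as well as on the RNA.

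The study compared Xinyang buffalo, a Chinese water buffalo whose samples are labelled low in intramuscular fat, with Nanyang cattle, labelled high in it. The 3 groups used here are longissimus dorsi muscle of buffalo, longissimus dorsi muscle of cattle and back subcutaneous adipose tissue of cattle, with 3 libraries each. Per the labels, the animals of these libraries were weaned at 3 months, castrated at 6 months, fattened from 18 months on and slaughtered at 30 months of age. The study also kept unfattened animals, and no library used here is labelled as one. The study took both cattle tissues from 3 cattle, so the libraries of the tissues are not independent of each other, and each species was kept on its own farm. Reads of both species were aligned to the cattle genome UMD3.1, and all coordinates are those of this build.

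Library totals were 60015033 to 65777231 reads in buffalo muscle, 35712276 to 42265538 in cattle muscle and 36842293 to 38836675 in cattle adipose tissue. A single read was worth 0.0152 to 0.0167 RPM (junction reads scaled to the library total) in buffalo muscle, 0.0237 to 0.0280 RPM in cattle muscle and 0.0257 to 0.0271 RPM in cattle adipose tissue. The tissue labels were checked with circRNAs of marker genes. The summed level of the circRNAs of 12 skeletal muscle genes was 11.6 to 13.6 RPM in buffalo muscle, 24.0 to 32.6 RPM in cattle muscle and 0 to 0.0269 RPM in cattle adipose tissue. That of 10 adipocyte genes was 0 in buffalo muscle, 0.0265 to 0.118 RPM in cattle muscle and 0.950 to 1.43 RPM in cattle adipose tissue. These sums rest on few genes, with reads for 3 to 6 of the 12 in a muscle library and 3 or 4 of the 10 in an adipose library. In bulk tissue, fewer cells of a type and less RNA per cell cannot be told apart. The buffalo and cattle tables were made separately, and no level was tested across them.

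Intergenic circRNAs were a small class in every library. Buffalo muscle 1, 2 and 3 had 67, 50 and 31 of them with 130, 115 and 43 reads. Cattle muscle 1, 2 and 3 had 108, 110 and 142 with 373, 518 and 591 reads, and cattle adipose tissue had 82, 94 and 70 with 247, 377 and 275 reads. Every cattle muscle library thus held more intergenic circRNAs than every cattle adipose library. As a share of all detected junctions they overlapped, at 2.21%, 1.60% and 2.69% in muscle and 1.67%, 1.47% and 1.68% in adipose tissue (difference of the means 0.567 percentage points; exact two-sided permutation test, p = 0.3). They took 2.46%, 1.88% and 0.962% of all circRNA reads in buffalo muscle 1 to 3. In cattle the share was 2.42%, 1.91% and 2.70% in muscle and 2.05%, 1.79% and 1.94% in adipose tissue. The ranges of the cattle tissues overlapped, and the means of 2.34% ± 0.400 (SD, n = 3) and 1.93% ± 0.131 (SD, n = 3) differed by 0.413 percentage points (exact two-sided permutation test, p = 0.3; 0.1 is the smallest p that 3 against 3 libraries allow).

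**Figure D1:**
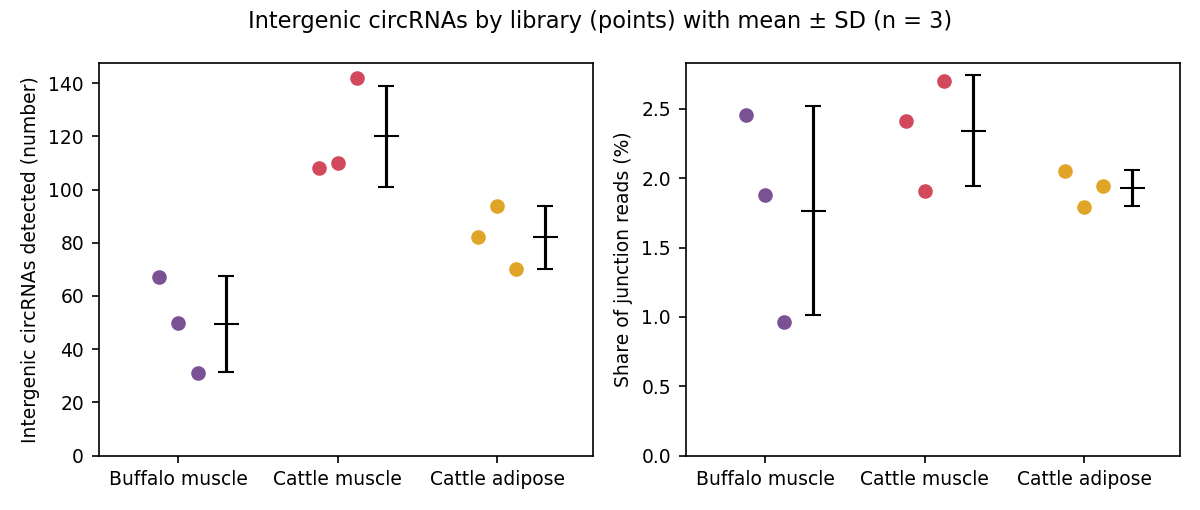
The left panel plots the number of intergenic circRNAs detected in each library and the right panel their share of all circRNA reads in percent, with points for libraries and bars for the mean ± SD of 3 libraries. Cattle muscle lay between 108 and 142 junctions and cattle adipose tissue between 70 and 94, while the shares of reads overlapped.

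A pair of dense stretches held 118 of the 432 junctions. The first lies on chromosome 2 between CCDC141 and PLEKHA3, the nearest named genes with circRNAs of their own, and its 94 junctions run on the minus strand from 18131812 to 18329983. Of the protein-coding genes that RefSeq places between CCDC141 and PLEKHA3 on the newer assembly ARS-UCD2.0, one is TTN, which encodes titin, the giant filament protein of the sarcomere. TTN is named as host of 0 circRNAs in either table. The second stretch lies on chromosome X, where 24 junctions on the minus strand fall between 19819845 and 19820453. It begins 10 bp beyond the last circRNA end of FHL1, a LIM domain gene strongly expressed in skeletal muscle, whose 3 circRNAs are listed on the plus strand. The library kit does not mark strand, and how the tables assigned it is not given in the sources used here.

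Both stretches were read in muscle and not in adipose tissue. The chromosome 2 interval had 51, 24 and 7 reads in buffalo muscle 1 to 3, 14, 17 and 97 reads in cattle muscle 1 to 3, and 0 in each adipose library. It supplied 34 of the 67 intergenic junctions of buffalo muscle 1 and 31 of the 142 of cattle muscle 3. The chromosome X cluster had 11, 5 and 53 reads in cattle muscle, with 0 in adipose tissue and 0 in buffalo muscle. Cattle muscle 3 therefore held most reads of both stretches among the cattle libraries. For the 3 adipose libraries together, a count of 0 allows up to 0.0266 RPM per junction (3 reads; counting error only).

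The junctions of these stretches were short, thinly covered and anchored at shared ends. On chromosome 2, 69 of 94 spanned less than 1 kb, 60 had a single read and 84 were seen in 1 library, and the 94 starts met only 36 ends. The end at 18284703 joined 16 starts between 18284128 and 18284496 with 28, 19 and 1 reads, all in buffalo muscle. The end at 18290102 joined 12 starts between 18289429 and 18289825 with 5, 4 and 52 reads, all in cattle muscle. These main ends rest on few libraries. Cattle muscle 3 gave 52 of the 61 reads at 18290102, and in cattle muscle 2 its 4 reads were matched by 4 each at 18314714 and 18329983. In buffalo muscle 3 the end at 18307273, with 2 reads, had more than 18284703. On chromosome X, all 24 junctions shared the end 19820453, with starts from 19819845 to 19820226 and at most 7 reads on any of them. Pairs that share 1 end and differ by at most 30 bp at the other took in 33 of the 94 junctions of chromosome 2 and 22 of the 24 of chromosome X. Over all intergenic junctions such near-twins were 63 (14.6%), beside 0.366% of exonic and 19.2% of intronic junctions.

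Outside the 2 stretches, the share of reads on intergenic circRNAs was 2.04% ± 0.215 in cattle muscle and 1.93% ± 0.131 in the adipose tissue (SD, n = 3 each). The stretches were chosen after seeing the data and had no adipose read, so leaving them out can only lower the muscle share, and no test is given. Detected junctions outside them numbered 89, 93 and 91 in cattle muscle and 82, 94 and 70 in adipose tissue. These ranges overlapped, while all 73 cattle junctions inside the stretches were seen in muscle only.

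**Figure D2:**
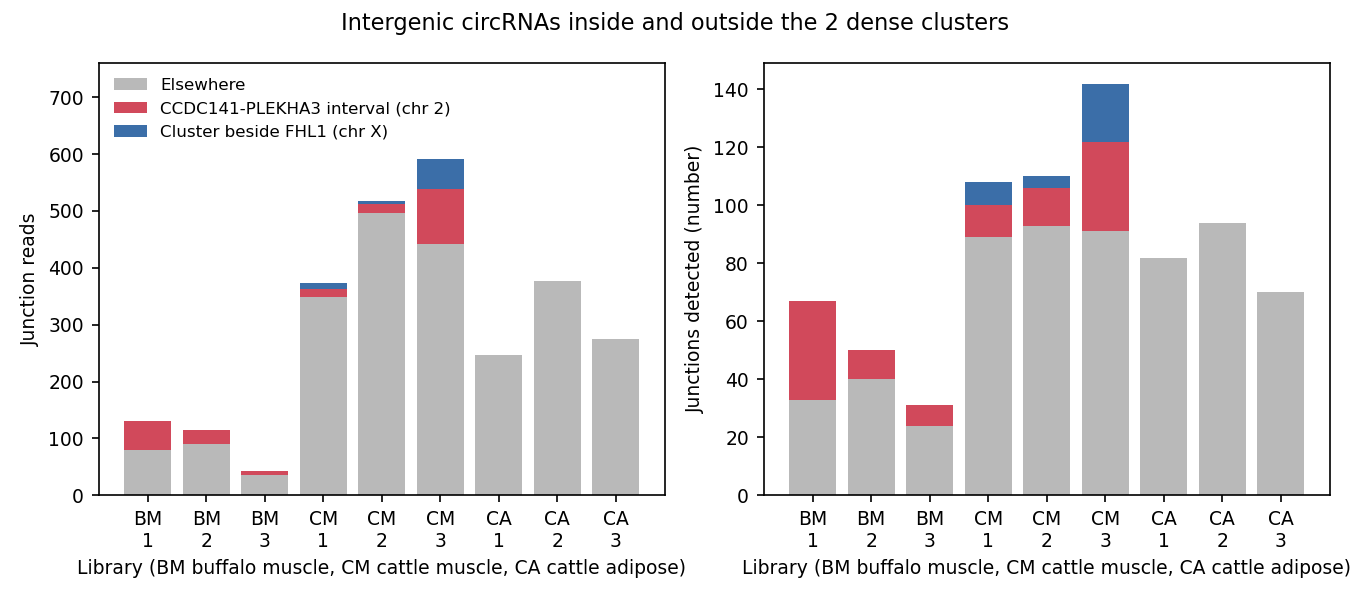
Bars show junction reads (left) and detected junctions (right) of intergenic circRNAs in each library, split into the CCDC141 to PLEKHA3 interval on chromosome 2, the cluster beside FHL1 on chromosome X and the rest of the genome. The chromosome 2 interval reached 97 reads in cattle muscle 3 and 51 in buffalo muscle 1, and neither stretch had a read in adipose tissue.

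The distance between the 2 ends of an intergenic junction ranged from 28 to 316732 bp, with a median of 2102.5 bp. Exonic junctions had a median of 10250.5 bp and intronic ones 762 bp. Of the intergenic junctions, 40.3% spanned less than 1 kb, against 5.97% of exonic ones, and 13.0% spanned more than 50 kb, against 7.63%. In each of the 6 muscle libraries the median span of intergenic junctions was below that of exonic ones, by 5293 bp on average (SD 1891, n = 6; exact two-sided sign-flip permutation test, p = 0.03125, the smallest that 6 libraries allow). Without the 2 dense stretches, a choice made after seeing the data, the mean difference was -965.1 bp (SD 3550, n = 6), below 0 in 5 libraries. It was above 0 in 1 and no longer passed the test (exact permutation test, p = 0.53125). Of the 118 junctions left out, 93 were under 1 kb, which shrinks the difference by construction, so this test decides nothing. The 314 junctions outside the stretches had a median span of 6487.5 bp, and 25.8% were under 1 kb. Cattle adipose tissue, which had no read there, had median spans of 8595.5, 11894 and 7219 bp for intergenic circRNAs and of 10140 bp ± 270.5 for exonic ones (SD, n = 3).

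**Figure D3:**
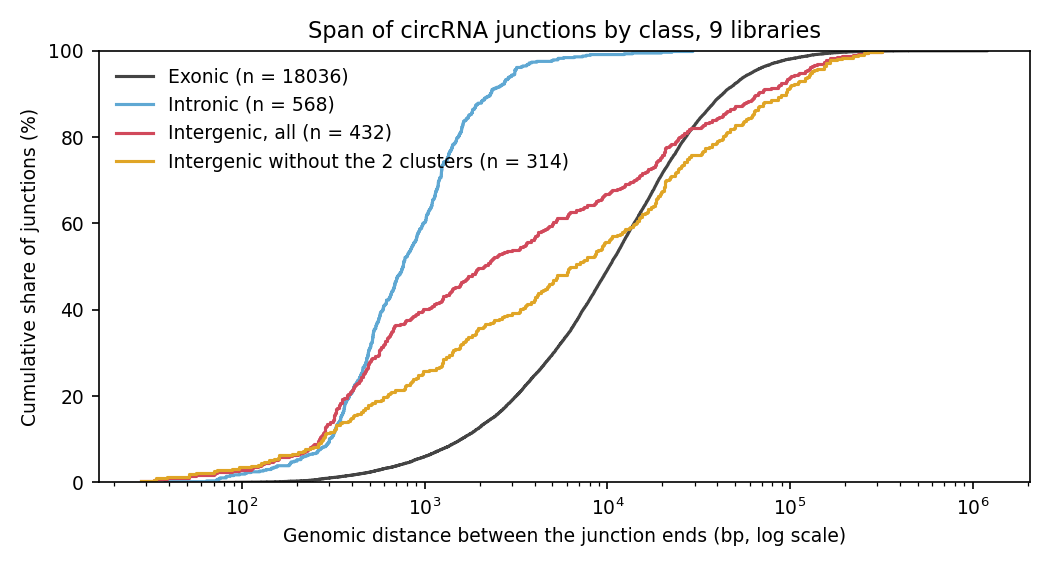
Each line gives the cumulative share of junctions in percent by the genomic distance between their ends in bp (log axis), for exonic, intronic and intergenic circRNAs and for intergenic ones outside the 2 dense stretches. The intergenic line runs beside the intronic one up to about 20% of junctions, and leaving out the 118 junctions moves its median from 2102.5 to 6487.5 bp.

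Most intergenic junctions lay outside the extent of the circRNAs of any host gene. This extent runs from the first start to the last end of a host's circRNAs, and gene bodies were not compared. Of the 432, 293 overlapped no such extent, 88 overlapped one on the opposite strand only and 51 overlapped that of a named host on their own strand. For these 51 the class label and the extent of the host's own circRNAs disagree. Such an extent can be that of a 1-read exon-intron circRNA, as for PHF21A below. Grouped by overlap on the same strand, the 432 junctions formed 207 loci, of which 154 held 1 junction and 11 held 5 or more. The minus strand carried 288 and the plus strand 144. Chromosome 2 held 104 of them (24.1%, beside 6.66% of all circRNA junctions) and chromosome X 46 (10.7%, beside 2.94%), which includes the stretches above.

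An end in common with a circRNA of a host gene was found for 28 intergenic junctions, which took 32.0% of all intergenic reads. The host circRNA was of the exon-intron class in all 28 cases. For 20 of the 28 the host also had exonic circRNAs, and the intergenic junction then lay on the 5′ side of them in 17 cases and on the 3′ side in 3. These host links were thin. For the 7 such junctions with 20 reads or more, the linking host circRNAs had at most 5 reads over the 9 libraries, and of 10 such circRNAs 6 had a single read and 1 had none.

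The intergenic circRNA with the most reads was chr15:76980811-76994777 on the minus strand, 13967 bp long. Its end is shared with a 1-read circRNA of PHF21A, which encodes a histone reader of the LSD1 demethylase complex. It had 15, 10 and 3 reads in buffalo muscle, 63, 116 and 77 in cattle muscle, and 51, 101 and 56 in cattle adipose tissue. With 18.4% of all intergenic reads, it ranked 53 of 4737 circRNAs in buffalo muscle, 16 of 11998 in cattle muscle and 3 of 11249 in cattle adipose tissue by mean RPM. The cattle tissues overlapped at 2.19 ± 0.540 and 1.85 ± 0.752 RPM (SD, n = 3 each), with a log2 difference of 0.27 ± 0.45 (SE; limma, Benjamini-Hochberg adjusted p = 0.797). A shorter junction with the same end, chr15:76987445-76994777, had 30 reads in all.

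Only 1 other intergenic circRNA was seen in all 9 libraries. This was chr17:40606888-40608971, of 2084 bp on the minus strand between RAPGEF2, a guanine nucleotide exchange factor for Rap, and FNIP2, a folliculin-interacting protein. It had 1, 3 and 7 reads in buffalo muscle, 5, 1 and 9 in cattle muscle and 7, 5 and 6 in cattle adipose tissue. Cattle muscle overlapped with both other groups. In RPM, buffalo muscle had 0.0152, 0.0471 and 0.117, which lay below the 0.190, 0.134 and 0.154 of cattle adipose tissue. This order is not particular to the junction. All circRNAs together summed to 80.5, 96.1 and 74.5 RPM in buffalo muscle and to 327, 566 and 365 RPM in cattle adipose tissue. The junction chr17:40604513-40608971 ends at the same base and had 1, 1 and 0, then 5, 3 and 15, then 0, 1 and 1 reads in the same order of libraries. With under 2 reads in every adipose library, this longer form entered the tissue test only through its muscle libraries. That fixed the order of all muscle values above all adipose values. The log2 difference was 1.23 ± 0.46 (SE; limma adjusted p = 0.108). With the replicate numbers as a block the limma adjusted p was 0.0489, although the numbers are not known to mark animals.

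In cattle muscle the next levels belonged to chr21:45011150-45011619, chr9:39385120-39393771 and chr1:20006971-20028590, with 0.894 ± 0.437, 0.732 ± 0.474 and 0.433 ± 0.170 RPM (SD, n = 3 each). Their ranges over the 3 libraries overlapped, so their order is not settled. The chromosome 9 junction lies between TRAF3IP2, an adaptor of interleukin-17 signalling, and REV3L, the catalytic subunit of DNA polymerase zeta. It had 13, 25 and 45 reads in cattle muscle, 3, 16 and 19 in adipose tissue and 0 in buffalo muscle, so the cattle tissues overlapped. In cattle adipose tissue, where the next ranges overlapped as well, the second mean level belonged to chr21:2104468-2130050 on the plus strand. It begins at the start of a 2-read circRNA of SNORD116, a small nucleolar RNA of the imprinted region between SNRPN and UBE3A. It had 15, 11 and 13 reads in cattle muscle, 15, 21 and 23 in adipose tissue and 0 in buffalo muscle, and its log2 difference of -0.50 ± 0.44 (SE) did not pass the test (limma adjusted p = 0.616).

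Between cattle muscle and adipose tissue, 4 intergenic circRNAs were higher in muscle and 0 in adipose tissue. The test was limma on log2(RPM + 0.1) with Benjamini-Hochberg adjustment at 0.05 over the 1917 circRNAs with at least 2 reads in at least 3 of the 6 cattle libraries. Only 39 of the 341 intergenic rows passed this filter, and a junction read in 1 tissue only can pass it only with all 3 libraries of that tissue. Of all circRNAs tested, 4.49% were higher in muscle and 0.313% in adipose tissue, 4.8% in either direction. At an unadjusted p under 0.05, 13 of the 39 were higher in muscle and 3 in adipose tissue, beside 14.4% and 5.58% of all circRNAs tested. On the recovered reads, edgeR with TMM called 5 and 1 of the 39, beside 7.15% and 1.36% of all. In 14 of the 39 all muscle values exceeded all adipose values, and in 4 the reverse held, beside 15.3% and 7.93% of all circRNAs tested. The filter itself fixed this for 9 of the 14 and 1 of the 4, which had under 2 reads in every library of the lower tissue and so passed only through the higher one. These include 3 of the 4 calls, namely the 2 nested junctions of chromosome 21 and the TFDP2 junction described below. Among all circRNAs tested, 53 of the 92 calls likewise had under 2 reads in every library of the lower tissue. Of the 29 with at least 2 reads in a library of each tissue, 5 and 3 did not overlap, beside 7.45% and 5.56% of the 1691 such circRNAs. The median log2 difference was 0.35 for the 39 and 0.07 for all 1917, and 0.19 for the 29 and 0.01 for the 1691.

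The largest of the 4 differences belonged to the inner of 2 nested junctions on chromosome 21 that were both called. They lie between EGLN3, a prolyl hydroxylase of the hypoxia response, and EAPP, an E2F-associated protein. The inner junction, chr21:45011150-45011619, spans 470 bp on the minus strand. It had 16, 41 and 46 reads in cattle muscle and 0 in every adipose library, which put the muscle mean at least 33.6-fold higher than the floor of 3 reads over the adipose libraries. Its fitted log2 difference was 3.20 ± 0.46 (SE; limma adjusted p = 0.000176). Since it entered the test only through muscle, the filter fixed the direction of this difference. The outer one, chr21:44993046-45011619, ends at the same base and spans 18574 bp. It had 5, 17 and 10 reads in muscle and 1, 0 and 0 in adipose tissue, with a log2 difference of 1.71 ± 0.44 (SE; limma adjusted p = 0.0250). The filter fixed its direction as well. This call was lost with a pseudocount of 1 (limma adjusted p = 0.0545) and with no filter (limma adjusted p = 0.1425). It was also lost in every fit with 1 library left out and the filter at 2 libraries (limma adjusted p = 0.0508 to 0.189). The 7 junctions of this interval together had 24, 66 and 67 reads in cattle muscle, 1 in each adipose library and 0 in buffalo muscle.

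Beside TFDP2, which encodes a dimerization partner of E2F transcription factors, chr1:127860128-127894524 spans 34397 bp on the plus strand, upstream of the exonic circRNAs of the gene, and shares its start with 2 exon-intron circRNAs of TFDP2 that had 1 read each. It had 12, 22 and 10 reads in cattle muscle and 0 in every adipose library, at least 14.0-fold above the floor, with a log2 difference of 2.21 ± 0.42 (SE; limma adjusted p = 0.00275). Buffalo muscle had 6, 11 and 1 reads of the same junction. The circRNAs assigned to TFDP2 itself summed to 0.952, 0.663 and 1.01 RPM in cattle muscle, 0.0543, 0.188 and 0.180 RPM in adipose tissue, and at most 0.0314 RPM in buffalo muscle. In cattle, these host circRNAs lay higher in every muscle library than in any adipose library. The intergenic junction passed the filter only through its muscle libraries, which fixed its own direction, so it adds nothing to that order. A second junction with the same end, chr1:127880041-127894524, had 4, 10 and 1 reads in buffalo muscle and 0 in all 6 cattle libraries.

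The last call was chr1:20006971-20028590, of 21620 bp on the minus strand between CHODL, a membrane lectin gene, and USP25, a deubiquitinase. It had 20, 10 and 19 reads in cattle muscle, 2, 3 and 3 in adipose tissue and 0 in buffalo muscle, with a log2 difference of 1.59 ± 0.44 (SE; limma adjusted p = 0.0441). Of 22 alternative settings, 8 kept this call. It was lost with a pseudocount of 1 (limma adjusted p = 0.0545), no filter (0.475) and scaling to all junction reads (0.0645). Every fit with 1 library left out and the filter at 2 libraries lost it too (limma adjusted p = 0.0830 to 0.194). In the opposite direction, chr1:21617059-21645819 on the plus strand came closest. RefSeq places NRIP1, a corepressor of nuclear receptors that acts in fat metabolism, between its neighbours USP25 and SAMSN1. It had 3, 4 and 1 reads in cattle muscle and 8, 15 and 26 in adipose tissue. The tissues did not overlap, yet the log2 difference of -1.59 ± 0.46 (SE) missed the threshold (limma adjusted p = 0.0510), while edgeR with TMM gave an adjusted p of 0.0150. With the replicate numbers as a block the limma adjusted p was 0.00689, although the numbers are not known to mark animals. Of 22 alternative settings, 9 passed the threshold. It was missed with a pseudocount of 1 (limma adjusted p = 0.0671), with no filter (0.475) and without cattle muscle 1, 2 or 3 (0.0999 to 0.258). Every fit with 1 library left out and the filter at 2 libraries missed it too (limma adjusted p = 0.126 to 0.241). The junction chr25:23124924-23136156, between LCMT1 and IL4R, had 1, 3 and 3 reads in muscle and 15, 14 and 1 in adipose tissue and overlapped.

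The calls changed when single libraries were left out. Without cattle muscle 1, 2 or 3 no intergenic circRNA was called. Of the 4, the junctions with at most 1 adipose read could then no longer reach 3 libraries and were not tested. The junction chr1:20006971-20028590 was tested and kept log2 differences of 1.44, 1.89 and 1.43, with limma adjusted p of 0.189, 0.0834 and 0.239. The 470 bp junction and the TFDP2 junction had 0 adipose reads, so leaving out an adipose library cannot move their difference, and without cattle adipose 3 no other intergenic junction was called. Without cattle adipose 1 the chr1:20006971-20028590 junction missed it (limma adjusted p = 0.0786). With the filter set at 2 libraries, chosen after seeing the data, 2, 0 and 1 were called without muscle 1, 2 and 3, and 0, 2 and 0 without adipose 1, 2 and 3. Under that filter the log2 differences stayed between 2.90 and 3.61 for the 470 bp junction and between 1.99 and 2.35 for the TFDP2 junction, with limma adjusted p of 0.00709 to 0.123 and 0.0339 to 0.123. Both missed the threshold without muscle 2 (limma adjusted p = 0.0599 and 0.0661), without adipose 1 (limma adjusted p = 0.0509 and 0.0866) and without adipose 3. The TFDP2 junction also missed it without muscle 3 (limma adjusted p = 0.0585).

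**Figure D4:**
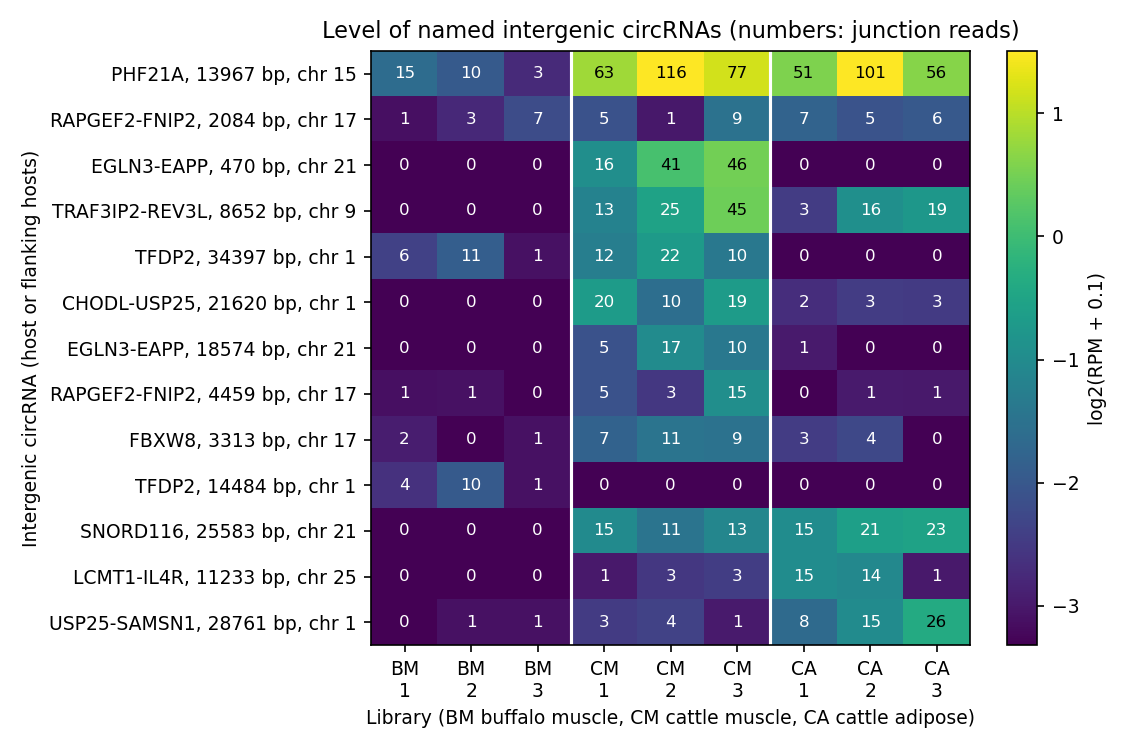
Colour gives the level as log2(RPM + 0.1) of 13 intergenic circRNAs in each library and the printed number its junction reads, with rows named by the host on the same strand or, failing that, by the flanking hosts. The PHF21A junction was read in all 9 libraries, the TFDP2 and EGLN3 to EAPP junctions had at most 1 read in any adipose library, and the USP25 to SAMSN1 junction was highest in adipose tissue.

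Few intergenic circRNAs recurred in every animal of a group. In buffalo muscle 8 of 115 (6.96%) were found in all 3 animals, against 34 of 250 (13.6%) for muscle and 16 of 173 (9.25%) for adipose tissue of cattle. Exonic circRNAs gave 8.32%, 12.3% and 10.4% in the same groups. The recurrent junctions carried 34.0%, 66.9% and 58.7% of the intergenic reads of their groups. Recurrence followed the number of reads. In cattle muscle, 23 of 25 intergenic junctions with over 10 reads were in all 3 animals, against 10 of 22 with 6 to 10 reads and 1 of 46 with 3 to 5. Mean reads per junction in the 6 muscle libraries differed from those of exonic circRNAs by 0.073 (SD 0.566, n = 6), above 0 in 3 libraries and below 0 in 3 (exact two-sided sign-flip permutation test, p = 0.781). Over all 9 libraries the difference was 0.257, above 0 in 6 (exact permutation test, p = 0.184). This test takes the 9 libraries as independent, although both cattle tissues came from 3 cattle. In the muscle libraries without the dense stretches the difference was 0.458, above 0 in 4 of 6 (exact permutation test, p = 0.1875). That choice was made after seeing the data, so its test decides nothing. Over the 9 libraries 192 junctions (44.4%) had a single read in all, and 282 (65.3%) were seen in 1 library. The 10 junctions with the most reads held 42.0% of all intergenic reads.

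**Figure D5:**
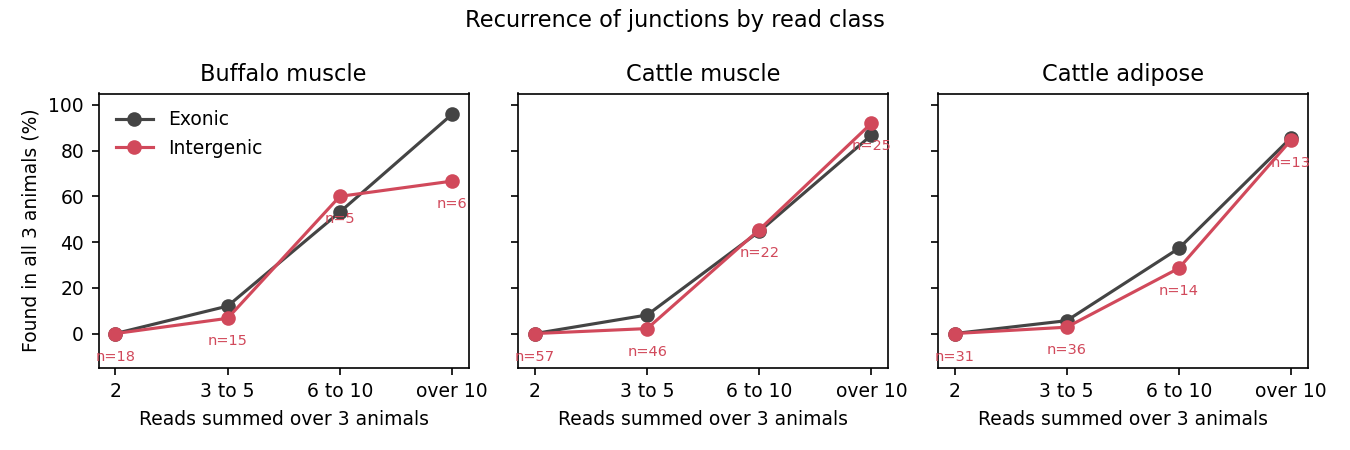
Points give the percent of junctions found in all 3 animals of a group by the reads summed over these animals, for exonic and intergenic circRNAs, with the number of intergenic junctions printed. In cattle muscle and adipose tissue the intergenic values lay within about 10 percentage points of the exonic ones in each read class, and in buffalo muscle 66.7% of the 6 intergenic junctions with over 10 reads were in all 3 animals, against 95.9% of exonic ones.

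Buffalo muscle and cattle muscle shared 22 intergenic junctions with identical ends, which is 19.1% of the buffalo and 8.80% of the cattle list. The shares were 48.7% and 19.6% for exonic circRNAs and 15.2% and 2.27% for intronic ones. Allowing 5 bp at both ends added none. With at least 2 reads in each group, 16 of the 44 intergenic junctions of buffalo muscle (36.4%) were shared, beside 53.8% of exonic ones. Inside the chromosome 2 interval only 1 of the 46 buffalo junctions was found in cattle muscle (2.17%), a 409 bp junction with 1 read in each species. Outside both stretches 21 of 69 were (30.4%). Buffalo muscle shared 18 junctions with cattle adipose tissue, and the cattle tissues shared 82 with each other, which is 32.8% of the muscle and 47.4% of the adipose list.

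The 24 junctions found in buffalo muscle and in either cattle tissue had a median span of 4832.5 bp and a median of 9 reads in all, and 4 of them were under 1 kb. They held 37.5% of the intergenic reads of buffalo muscle and 31.6% of those of cattle. The 91 junctions of buffalo muscle not found in cattle had a median span of 653 bp, and 64 had a single read. The junctions beside PHF21A and TFDP2 led the shared set by mean RPM in the muscle of either species. The third in buffalo muscle was chr17:40606888-40608971, with 11 reads. The third in cattle muscle was chr17:60169010-60172322 on the minus strand, which ranked 293 of 11998 circRNAs there and 993 of 4737 in buffalo muscle. It shares its start with 2 circRNAs of FBXW8, a substrate receptor of a cullin ubiquitin ligase, that had 1 read each. The junction had 2, 0 and 1 reads in buffalo muscle, 7, 11 and 9 in cattle muscle and 3, 4 and 0 in adipose tissue, with no overlap between the cattle tissues (log2 difference 1.09 ± 0.44, SE; limma adjusted p = 0.149). The buffalo junctions with the most reads that cattle lacked were that beside TFDP2 and 2 of the chromosome 2 interval, chr2:18284128-18284703 and chr2:18284131-18284703, each with 7, 5 and 0 reads in buffalo muscle. The cattle junction with the most reads in muscle that buffalo muscle lacked was the 470 bp junction between EGLN3 and EAPP, for which a count of 0 in the 3 buffalo libraries together allows up to 0.0158 RPM.

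Among junctions with at least 10 reads in a table, spans reached from 470 bp at EGLN3 to EAPP to 95949 bp in cattle, the latter at chr21:32925131-33021079 which overlaps circRNAs of PEAK1, a pseudokinase gene, on the same strand. This long junction had 1, 0 and 0 reads in cattle muscle and 2, 6 and 2 in adipose tissue (log2 difference -0.76 ± 0.33, SE; limma adjusted p = 0.198). It passed the filter only through its adipose libraries, which fixed this direction. In buffalo muscle the range was 573 bp at chr2:18284131-18284703 to 34397 bp beside TFDP2.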

How the data were processed

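RNA sequencing values of 9 libraries from 3 groups were used, and groups and replicate numbers came from the sample titles. Per the labels and the study's methods, the authors trimmed reads with Trim Galore, aligned both species to UMD3.1 with STAR, and ran Cufflinks 2.2.1 and Cuffdiff. The kit selects polyadenylated RNA, which circRNAs are not, and does not mark strand. In the deposited circRNA tables each junction has an RPM value per library. The caller and the rule for the intergenic class are not given in the sources used here. Deposited FPKM values of mRNAs served to check marker genes in buffalo muscle, where ACTA1 had 31520 to 43240 FPKM and NEB, also a muscle gene, was listed at 0 in all 3 libraries. Of the adipocyte genes checked there, LPL had 92.0 to 129 FPKM, FABP4 3.97 to 8.20 and PLIN1 0.367 to 1.35. PPARG had 2.3 to 4.1 FPKM and ACACA 5.19 to 5.59. The 9 columns of buffalo adipose tissue in the buffalo tables match no sample given here and were not used, nor was the lncRNA table.

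All RPM values were whole multiples of the smallest step of their library (100% within 0.01 reads), which gave back whole reads and library totals. Intervals and floors cover counting error only. Cattle tissues were compared with limma 3.58.1 (R 4.3.3) on log2(RPM + 0.1), with a trended prior, at least 2 reads in 3 of 6 libraries and Benjamini-Hochberg adjustment, tested on simulated data. Fold changes are on that scale and understate low circRNAs. Single values were compared with exact permutation tests in Python 3.11.15. The labels do not say which muscle and adipose libraries share an animal. Alternatives were pseudocounts of 0.5 and 1, no filter and at least 5 reads, no trend, the replicate block, scaling to all junction reads, each library left out, edgeR 4.0.16 and DESeq2 1.42.0 on recovered reads and, chosen after seeing the data, leaving out 2 dense stretches and a filter at 2 libraries. Named junctions were the top 5 by mean RPM in each group, the calls, the top 5 shared ones by mean over both muscles, the shortest and longest with 10 reads and those in all 9 libraries; others were named after their values were seen. Members and lists were chosen with earlier results of these data known. Gene neighbours were read from RefSeq on ARS-UCD2.0, by name only.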

Additional observations from a re-analysis of the deposited data

How the results depend on the processing

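Of the 432 intergenic junctions 192 rest on a single read, and 39 had at least 2 reads in 3 cattle libraries and entered the tissue test. With at least 2 reads in a library, 40 junctions remained detected in buffalo muscle, 140 in muscle of cattle and 84 in adipose tissue, and 2.50% of those in buffalo muscle and 14.3% of those in adipose tissue were in all animals. With at least 2 reads in each group, buffalo muscle and cattle adipose tissue shared 8. With 1 animal left out in turn, buffalo muscle had 70 to 99 junctions, and the percent in all remaining animals was 13.9 to 18.2 in buffalo muscle, 23.5 to 27.6 in cattle muscle and 20.6 to 23.9 in adipose tissue, where 2 animals in place of 3 raise it by construction. The difference in reads per junction from exonic circRNAs turned to -0.15 against all other circRNAs and ranged from -0.088 to 0.233 with 1 library left out. The difference in the percent of single-read junctions ranged from -1.87 to 3.60. The difference between cattle tissues in the share of reads was 0.2345 percentage points without cattle muscle 3 and 0.6295 without cattle muscle 2. Without the 2 dense stretches (chosen after seeing the data) the span difference was -965.1 bp and buffalo muscle had 69 junctions.

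Counts of intergenic circRNAs higher in muscle and in adipose tissue were 4 and 0, beside 86 and 6 among all circRNAs. They were 2 and 0 with a pseudocount of 1 (all 61 and 4) or no filter (all 47 and 2), and 4 and 1 with at least 5 reads (all 102 and 20). They were 5 and 1 without trend (all 106 and 17), with edgeR (all 137 and 26, or 102 and 11 without TMM) and with DESeq2 (all 101 and 14), and 3 and 1 after scaling to all junction reads (all 82 and 40). This scaling moved the median log2 difference of all circRNAs from 0.07 to -0.10. With 1 library left out the intergenic counts ranged from 0 to 4 in muscle and from 0 to 1 in adipose tissue, and with the filter at 2 libraries from 0 to 2 in muscle. The replicate block gave 7 and 1, and 176 and 38 among all circRNAs. Muscle and adipose libraries of the same number had deviations correlated at 0.119, 0.0976 and 0.0292, so the numbers were not taken as pairs, although each muscle library correlated best with its own number, a hint from the data and not the design. Apart from the filter rule named above, the cause of these shifts was not tested. For single named junctions, 225 recomputed values kept the direction and the side of the threshold, 10 passed it newly and 30 no longer passed it. Uncalled log2 differences changed sign for chr15:76980811-76994777, to -0.12 after that scaling, and for chr17:40606888-40608971, which ranged from -0.61 to 0.14 with 1 library left out (0.14 without cattle muscle 2 with either filter).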
